A study of Mus musculus with 6 samples.

Results

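The genes described here are 30 glycolysis and lactate genes of the mouse: glucose transporters, the enzymes of glycolysis with their tissue isozymes, both subunits of lactate dehydrogenase, the lactate transporters, and a few enzymes of pyruvate entry and gluconeogenesis. They were chosen by gene symbol among 34298 gene names on a single-colour microarray, and all 30 were found, on 50 of 55681 probes. Each gene was read from its brightest probe, taken by the mean over all 6 arrays. The arrays measured total RNA of epithelial organoids, small epithelial bodies grown in a gel, from the esophagus (a stratified squamous epithelium) and the stomach (a columnar gland epithelium) of mice 1, 2 and 4, with 3 arrays per tissue. All organoids were primary cultures (passage 0) labelled as controls, harvested on day 8, or on day 7 for mouse 4 stomach. Esophagus organoids started from dissociated single cells and stomach organoids from corpus glands. In the methods, both media held B27, N2, EGF, noggin, FGF-10, nicotinamide, N-acetylcysteine, an inhibitor of the TGF-β receptor kinase and a ROCK inhibitor. The stomach medium also held conditioned media with WNT3A and R-spondin1, and gastrin, whereas the esophagus medium lacked these and held forskolin. The paper also grew esophagus organoids with WNT3A and R-spondin1, and the medium of the arrays is not named. Tissue, starting cells and any difference in medium cannot be told apart. The labels give a number for each mouse, without strain, age or sex. Wild-type C57BL/6 females are among the animals in the methods, which do not say which mice gave the arrays.

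Glycolysis splits glucose into pyruvate in the cytosol. Its early steps trap and phosphorylate the sugar, phosphofructokinase is its main control point, and its later steps return ATP. Lactate dehydrogenase is a tetramer of A (Ldha) and B (Ldhb) subunits that interconverts pyruvate and lactate, and the A-rich form is usual in tissues that make lactate, the B-rich form in oxidative tissues such as the heart. Many steps have several isozymes encoded by different genes, so that tissues can run the same reaction with different proteins. Stomach glands contain acid-secreting parietal cells, known for very dense mitochondria, while the esophagus is lined by layers of keratinocytes that divide at their base.

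The tissue labels matched their keratins. The squamous keratins Krt5, Krt13 and Krt14 were higher in esophagus (Krt5 by 11.93 log2 units), and the columnar genes Krt8, Krt18, Gkn1 and Tff1 were higher in stomach (Krt8 at a difference of -11.24). Krt5 was well above background on only 1 stomach array and Krt8 on only 1 esophagus array, so the size of these 2 differences is uncertain. The probes of Trp63, a basal squamous factor, disagreed. The brightest by mean level was 1.22 log2 units lower in esophagus, while the other 3 passed as higher in esophagus, with esophagus values of 10.24 to 13.46 and no stomach array well above background. Of 6 fibroblast and smooth muscle markers, 6 skeletal muscle markers and 5 immune, endothelial and red cell markers none passed the test. Cd68, a macrophage marker, was bright, at 14.77, 12.94 and 11.80 in esophagus and 11.04, 11.22 and 12.36 in stomach (1.63, adjusted p = 0.211), and it set the summed level of its list, 11.9 to 14.8 against 11.1 to 12.4 in log2 units. None of the 6 arrays had Ptprc, the pan-leukocyte marker, well above background. The part of such cells in the results was not tested. Between 45.5% and 51.1% of probes were well above background per array, with no saturated spot, and arrays correlated at 0.979 to 0.994 within a tissue and 0.923 to 0.940 between tissues. The esophagus array of mouse 4 was on a second slide, and the other 5 arrays shared a slide and scan. The results without it are therefore the values within a slide. In such bulk samples fewer cells of a type and less RNA per cell cannot be told apart.

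A few isozymes differed between the tissues while most enzymes of the chain did not pass the test. Of the 30 genes, 4 (13.3%) passed the test at an adjusted p under 0.05 (limma, Benjamini-Hochberg over all probes), Pfkfb3 higher in esophagus and Ldhb, Fbp2 and Pfkm higher in stomach, beside 14.9% of all genes (7.15% higher in esophagus and 7.7% in stomach) and 26.3% of the 17149 genes with a mean level above the median. The share was thus not above the background. By the thresholds of the study's methods (unadjusted p under 0.05 and 1.5-fold) Slc2a1 also passed, giving 5 genes, beside 21.7% of all genes. The median difference of the 30 genes, esophagus minus stomach, was -0.17 on the log2 scale, against 0.03 over all genes and 0.08 over those above the median level. Its sign depended on the processing. With the scanner software's processed signal scaled to the 75th percentile it was 0.04, against 0.19 over all genes. Of the 30 genes, 16 then lay above 0 in place of 8. This alternative, called 75th-percentile scaling below, changed both the signal and the normalization, and their parts were not tested apart. The 3 esophagus arrays did not overlap the 3 stomach arrays for 8 genes (26.7%), beside 31.6% of all genes; of these 8, Pfkfb3 was higher in esophagus and Pfkm, Ldha, Ldhb, Slc16a1, Pdha1, Fbp1 and Fbp2 in stomach, of which Fbp1 was near background. Slc2a3 and Pgam2 were not well above background on any array, Fbp1 only on 1 stomach array, and the other 27 on all 6. Among the 23 of these 27 that did not pass, the 95% interval of the difference lay within 1 log2 unit of 0 for 13 and reached beyond it for 10, so a difference of 2-fold was outside the interval for the former only.

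**Figure D1:**
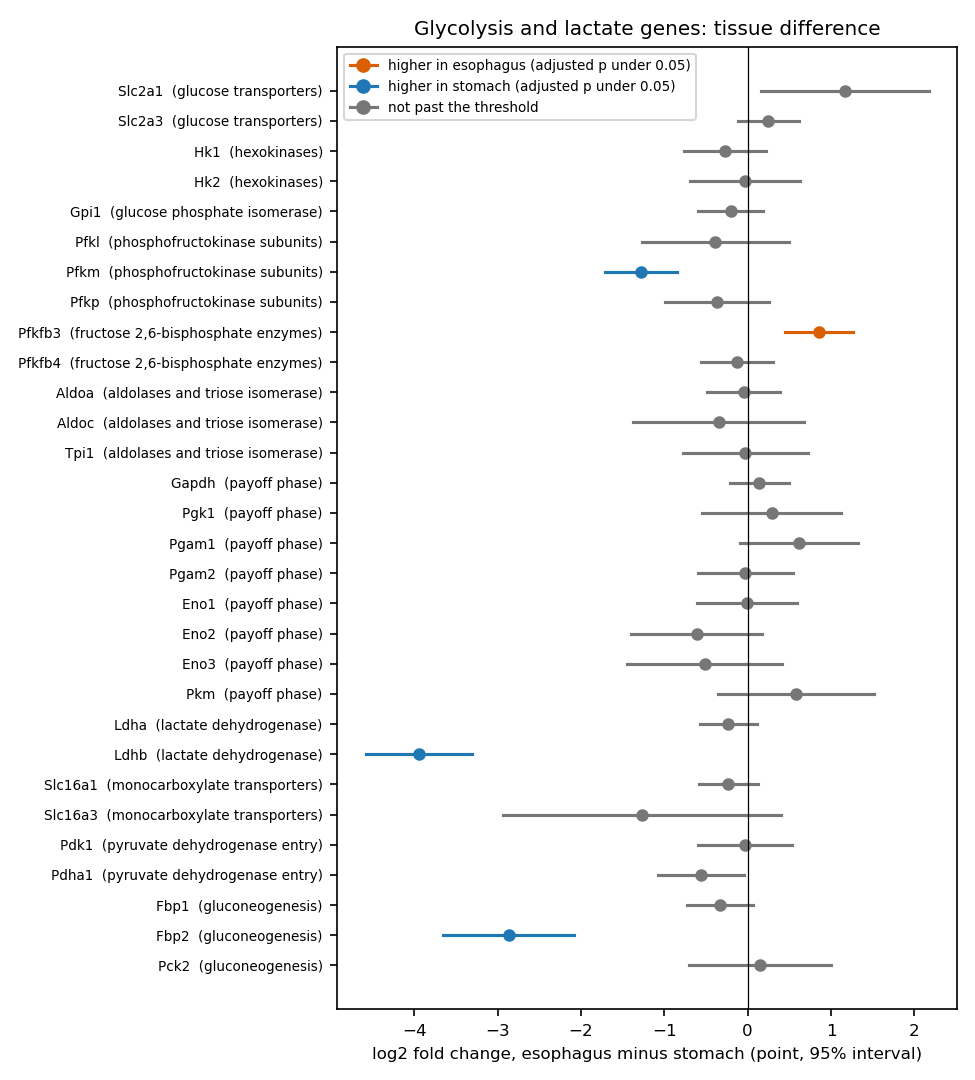
Difference between esophagus and stomach organoids (log2 fold change, horizontal axis) for each of the 30 genes in pathway order, with points at the limma estimate and bars at its 95% interval (3 arrays per tissue). Ldhb at -3.95 and Fbp2 at -2.87 stand far to the left, Pfkm lies at -1.28 and Pfkfb3 at 0.86, and the intervals of most other genes cross 0. Slc2a3, Pgam2 and Fbp1 were at or near background.

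The promoters of 5 of these genes are shown because Ldhb and Fbp2 had the largest tissue differences, Ldha is the other subunit beside Ldhb, and Pgk1 and Slc16a3 are described later for their values on the arrays of mouse 4. They were chosen with their values known and do not stand for the other genes. Each window runs from 250 bases before to 50 bases after a RefSeq transcript start (GRCm38.p6), 5′ to 3′ on the gene's own strand. Capitals mark ACGTG, one of the forms, with GCGTG, of the core that hypoxia-inducible factors recognise, on either strand (CACGT on the printed strand), where CACGTG holds an overlapping match on each strand and counts 2.
Ldha, chr7:46845554-46845853, plus strand: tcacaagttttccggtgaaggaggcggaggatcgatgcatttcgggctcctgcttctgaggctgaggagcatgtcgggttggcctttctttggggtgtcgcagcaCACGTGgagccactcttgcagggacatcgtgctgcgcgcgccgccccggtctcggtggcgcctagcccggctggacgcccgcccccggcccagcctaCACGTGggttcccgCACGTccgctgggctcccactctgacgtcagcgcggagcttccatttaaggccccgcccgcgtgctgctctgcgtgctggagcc
Ldhb, chr6:142507908-142508207, minus strand: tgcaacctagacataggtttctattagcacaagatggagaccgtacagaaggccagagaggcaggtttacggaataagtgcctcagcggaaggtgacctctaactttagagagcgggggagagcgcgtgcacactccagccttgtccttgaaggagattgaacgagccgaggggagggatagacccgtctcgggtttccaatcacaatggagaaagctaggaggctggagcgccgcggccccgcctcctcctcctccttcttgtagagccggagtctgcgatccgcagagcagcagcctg
Fbp2, chr13:62858351-62858650, minus strand: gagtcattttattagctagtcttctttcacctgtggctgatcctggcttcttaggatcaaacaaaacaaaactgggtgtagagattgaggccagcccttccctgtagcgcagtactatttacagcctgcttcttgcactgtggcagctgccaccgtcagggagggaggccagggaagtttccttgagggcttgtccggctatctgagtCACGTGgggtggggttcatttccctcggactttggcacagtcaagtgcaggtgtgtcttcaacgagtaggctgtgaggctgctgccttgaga
Pgk1, chrX:106186850-106187149, plus strand: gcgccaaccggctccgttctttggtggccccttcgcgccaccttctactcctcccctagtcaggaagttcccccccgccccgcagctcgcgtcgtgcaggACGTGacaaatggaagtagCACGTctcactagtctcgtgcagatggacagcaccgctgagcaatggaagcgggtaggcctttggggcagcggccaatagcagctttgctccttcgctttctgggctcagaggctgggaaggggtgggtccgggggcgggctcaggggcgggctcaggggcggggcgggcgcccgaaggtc
Slc16a3, chr11:120948817-120949116, plus strand: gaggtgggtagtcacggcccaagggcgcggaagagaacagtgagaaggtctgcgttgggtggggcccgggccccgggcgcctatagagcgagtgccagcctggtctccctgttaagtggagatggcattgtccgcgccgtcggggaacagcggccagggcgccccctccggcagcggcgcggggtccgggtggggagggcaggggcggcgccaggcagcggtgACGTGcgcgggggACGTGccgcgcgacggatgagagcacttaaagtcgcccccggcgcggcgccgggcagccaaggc
The Ldha window held 5 matches to ACGTG and the Ldhb window 0, while Fbp2, Pgk1 and Slc16a3 had 2 each. GCGTG, searched on both strands after these counts were seen and not in capitals, was found 2 times in the Ldha window, 1 time in that of Ldhb and 0 times in those of Fbp2, Pgk1 and Slc16a3. On all arrays, 27 of the genes were well above background. Of these, 12 read higher on the stomach array of mouse 4 and lower on its esophagus array than the mean of the others. Of the 12, 7 held ACGTG in a window, and 5 (Gpi1, Pdha1, Pdk1, Pfkl and Pfkp) did not. This was near the share among all 29 genes with a window, 15 (51.7%). Only Gpi1 of the 12 held neither form, and of the 29 genes 24 (82.8%) held at least 1 form. Fbp1, near background and not among the 27, deviated likewise and also held neither form. Ldha has a second window with 0 matches to ACGTG and 2 to GCGTG, and the window with more matches is shown. The windows also differ in CpG dinucleotides, with 30 in Ldha, 17 in Ldhb, 6 in Fbp2, 24 in Pgk1 and 36 in Slc16a3, and the letters searched contain a CpG. At least 1 match to ACGTG was found in 15 of the 29 genes with a window (51.7%; no window was listed for Slc2a3), beside 21.8% of 27025 genes, or in 42.9% of 42 windows beside 19.6% of all 32851 windows of this length. With either form the genes numbered 24 of 29 (82.8%), beside 46.7%, and 76.2% of the windows held a match, beside 43.8%. The CpG content of the windows was not compared between these genes and all genes, and its part in these shares was not tested. A match is a run of letters and was not tested as a binding site.

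Glucose uptake came first in the pathway. Slc2a1, the basal glucose transporter GLUT1, was read at log2 values of 13.97, 14.84 and 15.23 in the esophagus organoids of mice 1, 2 and 4 and of 13.32, 12.87 and 14.34 in their stomach organoids. It was higher in esophagus in all 3 mice, although the stomach array of mouse 4 lay above the esophagus array of mouse 1. The difference of 1.17 (SE 0.43) did not pass (adjusted p = 0.145), but it passed without the stomach array of mouse 4 (1.58, adjusted p = 0.0359). The hexokinases, which phosphorylate glucose on entry, gave differences of -0.27 (Hk1) and -0.03 (Hk2), and the isomerase Gpi1 gave -0.20, none past the threshold. The dimmer Hk1 probes gave 0.05 and 0.10, so the direction for Hk1 depends on the probe.

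Phosphofructokinase, the committed step, differed in its muscle-type subunit. Pfkm was read at 10.10, 10.05 and 9.60 in esophagus and 11.00, 11.27 and 11.31 in stomach, so that all esophagus arrays lay below all stomach arrays. It was 2.43-fold higher in stomach (log2 difference -1.28, SE 0.19, adjusted p = 0.00342) and lower in esophagus in all 3 mice. Its probe lies at chr15:97962713-97962772 (mm9), as the array design places it. The liver-type subunit Pfkl was read at 12.34, 12.96 and 12.34 in esophagus and 12.41, 12.56 and 13.84 in stomach, and the platelet-type subunit Pfkp at 10.96, 11.23 and 10.91 against 11.10, 11.08 and 12.03. Both overlapped between tissues, and in both the stomach array of mouse 4 was the highest of the 6. Their differences, -0.39 (SE 0.38) and -0.37 (SE 0.27), did not pass.

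The bifunctional PFKFB enzymes make and break down the sugar bisphosphate that activates phosphofructokinase. Pfkfb3, the form with the highest ratio of kinase to phosphatase activity, was read at 10.84, 10.40 and 10.73 in esophagus and 9.87, 9.93 and 9.60 in stomach, without overlap. It was 1.81-fold higher in esophagus (log2 difference 0.86, SE 0.18, adjusted p = 0.0173), in all 3 mice. The Pfkfb3 call was close to the threshold. It was lost without the stomach array of mouse 1 (0.89, adjusted p = 0.0636) and with 75th-percentile scaling (1.03, adjusted p = 0.0684), where the difference was no smaller. For the mean of its 2 probes the difference was 0.59 (adjusted p = 0.0716). Its dimmer probe, designed to another transcript and well above background on 1 array of each tissue, gave 0.32 (adjusted p = 0.40). Pfkfb4 was read at 8.77, 9.10 and 8.47 in esophagus and 8.84, 8.99 and 8.90 in stomach, overlapping, with a difference of -0.13 (SE 0.19).

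None of the 11 genes for the aldolases, the triose isomerase and the later enzymes of glycolysis, from Gapdh to Pkm, passed the test. Aldoa gave -0.05, Tpi1 -0.03, Gapdh 0.14 and Eno1 -0.01. Pgam1, the widespread phosphoglycerate mutase, gave 0.62 (SE 0.31) and Pkm, the non-liver pyruvate kinase that makes pyruvate and ATP, 0.58 (SE 0.40), each higher in esophagus in all 3 mice. The brain aldolase Aldoc gave -0.35 (SE 0.44), and the neuronal and muscle enolases Eno2 and Eno3 gave -0.61 (SE 0.34) and -0.52 (SE 0.40). Pgk1, the first ATP-yielding kinase, was read at 16.68, 16.75 and 16.38 in esophagus and 15.86, 15.86 and 17.22 in stomach. In mice 1 and 2 esophagus was higher by 0.82 and 0.89, in mouse 4 lower by 0.84. Its difference of 0.29 (SE 0.36, adjusted p = 0.716) became 0.74 (adjusted p = 0.0390) without the stomach array of mouse 4, and that of Eno2 became -0.98 (adjusted p = 0.0472). Gapdh is on the array with 8 probes, and none passed; the design places its brightest probe on chromosome 7, although the gene lies on chromosome 6, so the RNA it reads is uncertain. The brightest probes of the other 29 genes lie on their gene's chromosome.

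Lactate dehydrogenase showed the largest difference of the 30 genes. Ldhb was read at 7.56, 6.81 and 7.74 in esophagus and 11.49, 11.50 and 10.96 in stomach. The tissues lay more than 3 log2 units apart, whereas the arrays of a tissue spread over less than 1. Ldhb was 15.4-fold higher in stomach (log2 difference -3.95, SE 0.28, 95% interval -4.59 to -3.31, adjusted p = 6.27e-05), with -3.94, -4.69 and -3.21 in mice 1, 2 and 4, and it passed in each of the alternatives run, with adjusted p between 2.45e-06 and 0.000981. Its only probe lies at chr6:142438770-142438829 (mm9). Ldha was read at 15.60, 15.68 and 15.77 in esophagus and 15.79, 16.07 and 15.88 in stomach, which do not overlap but differ by only -0.23 (SE 0.15, adjusted p = 0.411). The 2 dimmer Ldha probes had the opposite sign, at 0.74 (SE 0.36) and 0.44 (SE 0.35), and none of the 3 probes passed, so the direction for Ldha depends on the probe.

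**Figure D2:**
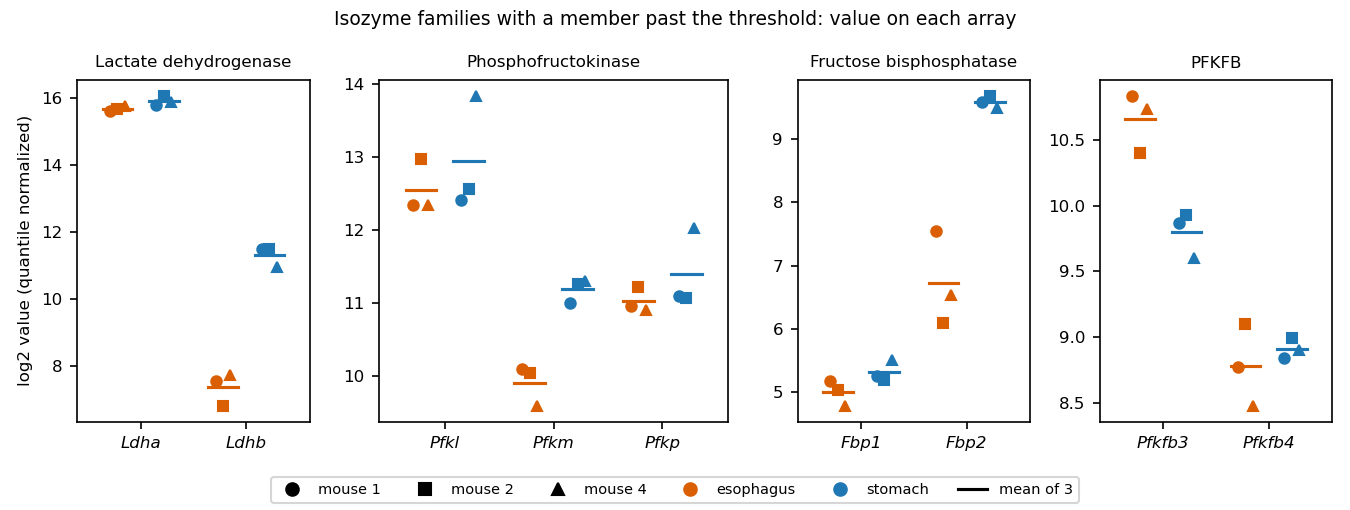
Log2 values (vertical axis, quantile normalized, a separate scale per panel) on each of the 6 arrays for the isozymes of lactate dehydrogenase, phosphofructokinase, fructose bisphosphatase and PFKFB, with mouse 1 as circles, mouse 2 as squares, mouse 4 as triangles and the mean of 3 arrays as a line. Ldhb, Fbp2 and Pfkm sit higher in all 3 stomach arrays and Pfkfb3 higher in all 3 esophagus arrays, while Ldha, Pfkl, Pfkp and Pfkfb4 differ by less than 0.4 between tissue means.

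Lactate leaves or enters cells through monocarboxylate transporters. Slc16a3 (MCT4), the exporter of glycolytic cells, was read at 12.09, 13.10 and 11.09 in esophagus and 12.42, 12.74 and 14.93 in stomach. Its arrays spread widely within a tissue (SD 1.01 in esophagus and 1.37 in stomach, the latter the largest of the 30 genes), and its difference of -1.27 (SE 0.72) did not pass (adjusted p = 0.352). Mouse 4 gave -3.84 and mice 1 and 2 -0.33 and 0.36, and a second probe, shifted by 7 bases, gave -1.21. Slc16a1 (MCT1) was dim, between 5.60 and 6.08 over all arrays, with a difference of -0.23 (SE 0.15).

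At the entry of pyruvate into mitochondria, Pdha1, a catalytic subunit of pyruvate dehydrogenase, was read at 11.86, 11.38 and 11.49 in esophagus and 11.99, 11.89 and 12.54 in stomach. The tissues did not overlap, but the difference of -0.56 (SE 0.22) did not pass (adjusted p = 0.169). Pdk1, a kinase that switches the enzyme off, gave -0.03 (SE 0.24).

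The gluconeogenic enzyme fructose bisphosphatase runs the phosphofructokinase step backwards. Fbp2, its muscle form, was read at 7.55, 6.09 and 6.54 in esophagus and 9.59, 9.69 and 9.50 in stomach, the latter within 0.2 of each other. It was 7.30-fold higher in stomach (log2 difference -2.87, SE 0.34, adjusted p = 0.00112), in all 3 mice. The array design places its only probe, of 60 bases, within chr13:62950852-62955367 (mm9), an interval longer than the probe. Fbp1, the liver form and a neighbour on chromosome 13, was read at 5.17, 5.02 and 4.77 in esophagus and 5.26, 5.19 and 5.51 in stomach. Among its arrays a single one, of stomach, had it well above background, so its level in esophagus is only bounded and no fold is given. It did not pass (adjusted p = 0.301). Pck2, the mitochondrial enzyme that makes phosphoenolpyruvate, gave 0.15 (SE 0.37).

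Fbp2 and Pfkm are also genes of skeletal muscle. Of the 6 skeletal muscle markers, Ckm, Myh4 and Tnnt3 were not well above background on any array, Myl1 was on 1 esophagus array, and Acta1 and Mb were on the 3 stomach arrays and on no esophagus array, at 5.42 to 5.81 and 5.69 to 6.26. Their summed level, in log2 units, was 7.54 to 7.76 in esophagus and 7.72 to 7.88 in stomach. The Pgam2 and Eno3 enzymes of muscle did not pass, with Pgam2 not well above background on any array. The part of muscle cells in the Fbp2 and Pfkm results was not tested. Among neural and endocrine markers, Tubb3 and Elavl4 were higher in esophagus by 4.37 and 0.92, and the summed level was 11.1 to 12.2 in esophagus and 9.80 to 10.3 in stomach.

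Whether isozymes of a step differ in their tissue difference was examined in 14 pairs, as the log2 value of a gene minus that of the other on the same array. Levels of different probes are not comparable, but the shift of this difference between tissues is. For Ldha minus Ldhb it was 8.04, 8.87 and 8.02 in esophagus and 4.30, 4.57 and 4.92 in stomach, a shift of 3.71. Pfkfb3 minus Pfkfb4 shifted by 0.99 and Pfkm minus Pfkp by -0.91. These 3 and Fbp1 minus Fbp2 were the 4 pairs without overlap between tissues, but Fbp1 was mostly at background, so no shift is given for its pair, which adds nothing to the Fbp2 difference. Each of the 4 had a two-sided exact permutation p of 0.1, the smallest that 3 arrays against 3 allow (0.35 adjusted over the 14 pairs). Pfkl minus Pfkm, at 2.25, 2.92 and 2.75 in esophagus and 1.40, 1.30 and 2.53 in stomach, overlapped through the stomach array of mouse 4 (shift 0.89, exact p = 0.2). The other 9 pairs overlapped as well, with shifts from -0.24 to 1.04, among them Pgam1 minus Pgam2 and Slc2a1 minus Slc2a3, for which none of the 6 arrays had the second gene well above background. Leaving out an array cannot lower the number of pairs without overlap, which was 7 without the esophagus array of mouse 1 and 10 without the stomach array of mouse 4, so these counts are no support for the 4.

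**Figure D3:**
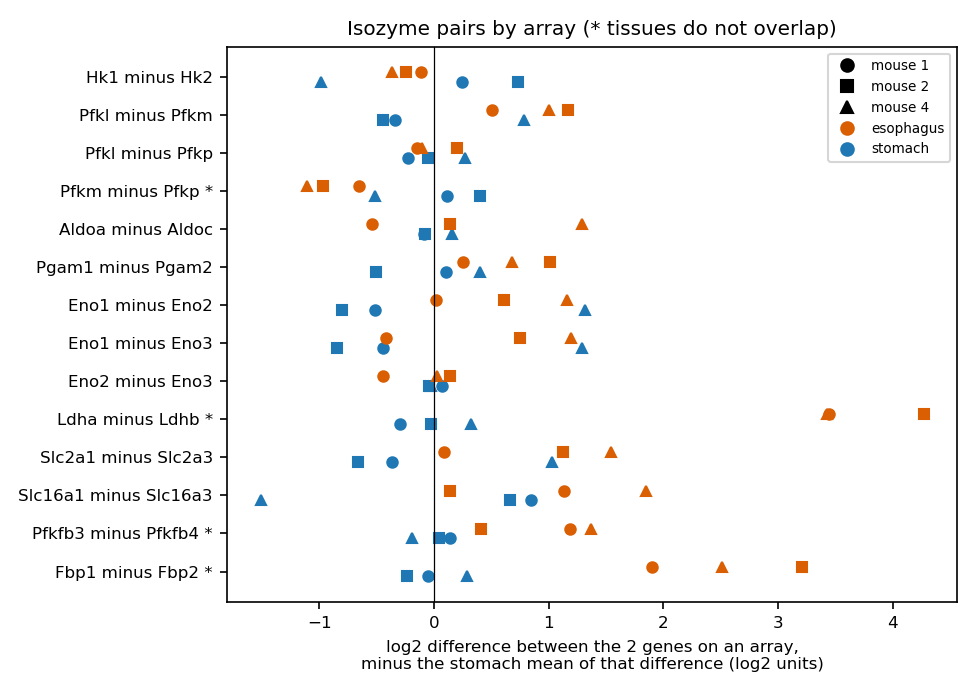
Log2 difference between 2 isozymes on the same array, minus its stomach mean (horizontal axis, log2 units), for 14 pairs, with esophagus arrays in orange, stomach arrays in blue and a symbol per mouse. Ldha minus Ldhb lies between 3.4 and 4.3 in esophagus against -0.3 to 0.3 in stomach, and asterisks mark the 4 pairs whose tissues do not overlap, among them Fbp1 minus Fbp2, with Fbp1 mostly at background.

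Arrays of a tissue differed among themselves for these genes, a description chosen after the values were seen. Among the 27 genes detected above background on every array, the stomach array of mouse 4 was the highest of the stomach arrays for 19 (70.4%), beside 45.2% of the genes above the median level, and it exceeded the mean of the other two by a median of 0.43, against 0.04. The esophagus array of mouse 4 was the lowest of its tissue for 14 of the 27 (51.9%), beside 30.4%. Other arrays deviated too. The stomach array of mouse 1 was the lowest of its tissue for 14 of the 27 (51.9%, beside 26.4%) and the highest for 0, and the esophagus array of mouse 2 the highest for 12 (44.4%, beside 25%). In mouse 4, for 12 of the 27 (44.4%) the stomach array lay above and the esophagus array below the mean of the other 2. The share was 23.2% of the genes above the median level. The counts were 0 in mouse 1 (beside 24.9%) and 6 in mouse 2 (22.2%, beside 24.1%). The deviations of a gene within a tissue sum to 0, so the arrays and mice are not independent of each other. The low count of mouse 1 is thus no separate observation. On the arrays of mouse 4, Slc16a3 was 2.35 above in stomach and 1.51 below in esophagus. Pgk1 was 1.36 above and 0.34 below, and Pfkl 1.35 above and 0.31 below. Aldoc was 0.19 above in stomach and 1.72 below in esophagus, at 13.85, 13.51 and 11.95 on the esophagus arrays. Ldhb went the other way, 0.54 below in stomach and 0.56 above in esophagus. 

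Some genes known for their induction by low oxygen deviated on the same arrays. The list of 13 hypoxia genes holds hypoxia-inducible factors, their hydroxylases and non-glycolytic targets. It is thus not limited to genes induced by low oxygen. In this list, the stomach array of mouse 4 was the highest of its tissue for 8 (61.5%), beside 45.2% of the genes above the median level. The esophagus array of mouse 4 was the lowest for 7 (53.8%), beside 30.4%. Other arrays deviated here as well: the esophagus array of mouse 2 was the highest for 9 (69.2%, beside 25%) and the stomach array of mouse 1 the lowest for 6 (46.2%, beside 26.4%). In mouse 4 the stomach array lay above and the esophagus array below the mean of the other 2 for 7 of the 13 (53.8%). Such genes numbered 4 in mouse 1 (30.8%) and 0 in mouse 2. Among the genes above the median level the shares were 23.2%, 24.9% and 24.1% in mice 4, 1 and 2. Here too the mice are not independent of each other. On the arrays of mouse 4, Egln3, an oxygen-sensing hydroxylase, was 1.28 above in stomach and 2.43 below in esophagus. Ndrg1 was 1.47 above and 1.97 below, Bnip3 1.03 above and 1.63 below, and Car9 1.38 above and 1.97 below. Adm, which encodes the peptide adrenomedullin, was read at 9.91, 10.68 and 5.69 in esophagus. Its stomach values of 9.74, 10.10 and 10.41 lay close together. Hif1a itself was 1.92 above in stomach and 0.09 above in esophagus, and Ankrd37 was 1.02 below and 0.66 above. Arnt, counted among the 7 of mouse 4, was only 0.11 above in stomach and 0.03 below in esophagus. The stomach array of mouse 4 came from day 7 and the esophagus array of mouse 4 from the second slide, and their part in these values was not tested. Without both arrays, Ldhb, Fbp2 and Pfkm passed, Pfkfb3 did not (0.72, adjusted p = 0.0743), and Slc2a1 (1.31, adjusted p = 0.0425) and Pgk1 (0.85, adjusted p = 0.0206) did, both higher in esophagus.

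**Figure D4:**
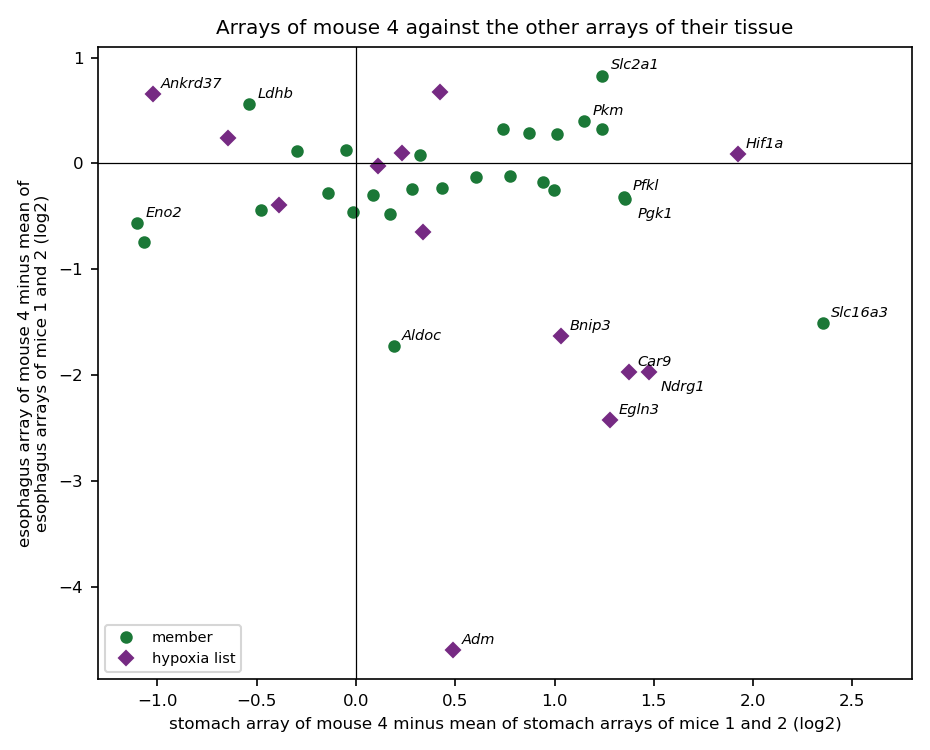
Deviation of the arrays of mouse 4 from the mean of the other 2 arrays of their tissue, stomach on the horizontal and esophagus on the vertical axis (log2 units), for the 27 detected glycolysis and lactate genes (circles) and 13 hypoxia genes (diamonds). Slc16a3 lies at the lower right with Egln3, Ndrg1, Car9 and Bnip3, and Ldhb lies at the upper left.

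The wider pathway was examined in 7 lists of 87 other genes. Of these, 25 (28.7%) passed the test, 7 higher in esophagus and 18 in stomach, beside 14.9% of all genes and 26.3% of those with a mean level above the median, and 66 of the 87 were well above background on all arrays. With 75th-percentile scaling, which also replaced the signal, 19 passed, 8 higher in esophagus and 11 in stomach, of which 17 were among the 25. The 8 lost were Pfkfb2, Pdp1, G6pc3, Gys1, Ugp2, Suclg1, Sdhd and Slc16a7 (adjusted p 0.0673 to 0.443). With a normexp offset of 50, a background correction, 5 were lost (Pdp1, Gys1, Hif1a, Car9 and Slc16a7, adjusted p 0.0504 to 0.0896). Over all 16 alternatives, 10 of the 25 passed each time and 15 were lost at least once.

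Among 18 other glycolysis genes, 1 was higher in esophagus and 5 in stomach, with a median difference of -0.07. Ldhd, a mitochondrial dehydrogenase of D-lactate, was read at 8.36, 6.73 and 6.77 in esophagus and 12.37, 12.63 and 12.44 in stomach, the largest difference in the 7 lists (-5.19, SE 0.41, adjusted p = 0.000125). Slc2a4, the insulin-responsive transporter GLUT4, was higher in esophagus, at 7.07, 8.17 and 8.57 against 5.19, 5.25 and 5.36 (2.67, SE 0.35). In stomach it was well above background on 1 array only, so the size of this difference is uncertain. Pklr, the liver and red cell pyruvate kinase, was at least 2.74-fold higher in stomach, since no esophagus array had it well above background.

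Of 14 pyruvate dehydrogenase and pyruvate entry genes 3 passed, each higher in stomach: Pdk2, another kinase of pyruvate dehydrogenase, at 7.11, 6.07 and 6.14 against 9.89, 10.26 and 9.24 (-3.36, SE 0.35), Pcx, the pyruvate carboxylase, at 11.91, 11.97 and 11.99 against 14.68, 14.78 and 14.41 (-2.67, SE 0.15), and the phosphatase Pdp1 (-0.75, SE 0.20). The median of the 14 was -0.21. Pdk2 and Pcx passed in the alternatives run, whereas Pdp1 was lost without any of 5 of the 6 arrays (all but the esophagus array of mouse 1), with adjusted p from 0.0622 to 0.163, and in 12 of the 16 alternatives in all, among them the scanner mean intensities (0.0518), outlier-marked spots kept, the mean of all probes, and eBayes with trend and robust variances. Of 12 gluconeogenesis and glycogen genes 4 passed, among them Pygb, the brain glycogen phosphorylase, at 8.58, 8.99 and 9.24 against 10.93, 11.55 and 10.57 (-2.08, SE 0.28), Ugp2, which makes UDP-glucose (-1.21, SE 0.26), and the glycogen synthase Gys1 (-1.12, SE 0.27), all 4 higher in stomach, with a median of -0.20. Gbe1, the glycogen branching enzyme, went the other way, at 9.69, 9.88 and 10.06 against 8.15, 8.26 and 9.61 without overlap (1.20, SE 0.37). It did not pass (adjusted p = 0.0825), but did so by the thresholds of the study's methods. Ugp2 was lost without esophagus array 2 or 4 or stomach array 1 (adjusted p 0.0501 to 0.0699), and Gys1 without esophagus array 1 or 2 or stomach array 2 or 4 (0.0534 to 0.104).

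In the 8 genes of the pentose phosphate pathway, which branches off glycolysis to make NADPH, the cytosolic dehydrogenase G6pdx was higher in esophagus, at 14.79, 14.87 and 14.85 against 13.53, 13.61 and 14.29 (1.03, SE 0.22), and H6pd, its counterpart in the endoplasmic reticulum, higher in stomach, at 8.33, 8.69 and 8.80 against 11.13, 11.13 and 11.53 (-2.65, SE 0.19). G6pdx was lost without esophagus array 2 or stomach array 1 or 2 (adjusted p 0.0664 to 0.0914). The median of the 8 was 0.05. Of 16 citric acid cycle genes, Sdhd (-0.93, SE 0.19) and Suclg1 (-0.83, SE 0.18) were higher in stomach, with a median of -0.41, and both were lost on leaving out some arrays: Sdhd without esophagus array 2 or stomach array 1 or 2 (0.0682 to 0.0754), Suclg1 without any array but the esophagus array of mouse 4 (0.0524 to 0.0826).

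Of the 13 hypoxia genes, 3 were higher in esophagus and 1 in stomach, with a median of -0.10. Ddit4, an inhibitor of mTOR signalling, was read at 15.66, 15.99 and 15.44 against 13.60, 13.51 and 13.17 (2.27, SE 0.20). Hif1a, the oxygen-regulated factor, was read at 11.92, 11.53 and 11.81 against 9.39, 8.93 and 11.08 (1.95, SE 0.50, adjusted p = 0.0416), and Car9, a membrane carbonic anhydrase, at 12.81, 12.85 and 10.86 against 14.32, 14.57 and 15.82 (-2.73, SE 0.59, adjusted p = 0.0224). Hif1a was lost without any array but the stomach array of mouse 4 (adjusted p 0.0900 to 0.163), and Car9 without any stomach array (0.0506 to 0.0681), with the mouse as a block (0.0596), and by eBayes with trend and robust variances.

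Of 6 monocarboxylate carriers and their chaperones, 2 were higher in each tissue, with a median of 0.29. The chaperones that carry lactate transporters to the membrane moved apart: Bsg (basigin) was read at 13.12, 13.03 and 13.10 in esophagus and 15.46, 15.68 and 15.95 in stomach (-2.61, SE 0.17), and Emb (embigin) at 8.75, 8.75 and 9.95 in esophagus and 6.70, 6.41 and 7.13 in stomach (2.40, SE 0.35). Slc16a7 (MCT2), a high-affinity carrier, was higher in stomach (-1.35, SE 0.34), but was lost without any array except the stomach array of mouse 4 (adjusted p 0.0700 to 0.154).

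**Figure D5:**
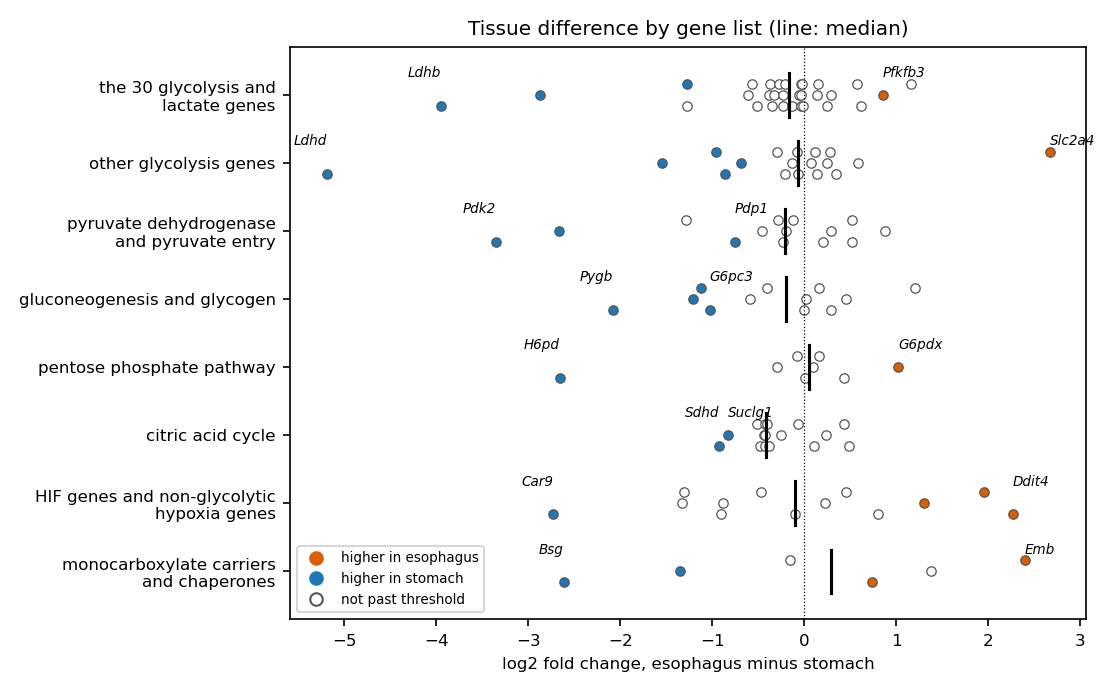
Log2 fold change, esophagus minus stomach (horizontal axis), of each gene in the set of 30 and in 7 lists of related pathways, with filled points past an adjusted p of 0.05, open points not past it, and a black line at each list's median. The medians lie between -0.41 and 0.29, while single genes such as Ldhd at -5.19, Pdk2 at -3.36 and Slc2a4 at 2.67 lie far from them.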

How the data were processed

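Total RNA was hybridised to single-colour Agilent mouse arrays and scanned spots were read with Agilent Feature Extraction 11.5.1.1, per the file headers. The deposited scanner files hold a linear intensity and flags for each of 62976 spots (3671 controls). The authors deposited log2 values in the series matrix, background corrected and quantile normalized by their methods. Set against the scanner intensities, these matched a normexp correction with an offset of 15 on each array, in scale and sample order. Here spots of a probe were averaged and 55681 probes fitted with limma 3.58.1 (R 4.3.3; lmFit, eBayes, tissue only), with Benjamini-Hochberg adjustment over all probes and a threshold of 0.05. Differences are esophagus minus stomach. A level is not well above background where the software flagged it so on every array of a tissue, and a fold is then a bound against the lowest well-above-background value. Depth does not apply to arrays, and the 3 arrays per tissue limit the precision. The replicate number is the mouse, so arrays with a number share an animal, and their deviations from the tissue means correlated at 0.02, 0.01 and -0.01 in mice 1, 2 and 4. The mouse as a block was an alternative. Whether array RNA came from more than a culture per mouse is not given in the sources used here.

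The 30 genes and the lists were chosen with earlier results of these data known. All 30 are named. Values per array are given for those past the threshold, for isozyme partners and for genes on which a result turns (the latter chosen after their values were seen). Of each other pathway list, at most 3 passing genes with the largest difference are described. Also described are Gbe1, which did not pass, and genes shown for their values on the arrays of mouse 4. Isozyme pairs were tested by exact permutation. Simulated data with known changes were used to test the fit, and their outcome is not reported here. Probe positions are those of the array design (mm9), and whether a probe lies in a coding exon or a UTR was not analysed here. Promoter windows and gene chromosomes are from RefSeq (GRCm38.p6), where all 30 symbols matched.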

Additional observations from a re-analysis of the deposited data

How the results depend on the processing

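Ldhb, Fbp2 and Pfkm kept their direction and passed in every alternative run for them. The largest adjusted p by limma was 0.000981 for Ldhb, 0.00986 for Fbp2 and 0.0478 for Pfkm, the last just under the threshold. The number of genes higher in esophagus was 1 as reported, 0 with 75th-percentile scaling and with the mean of all probes, 2 by the study's thresholds (unadjusted p and 1.5-fold) and 2 without both arrays of mouse 4 (an alternative chosen after seeing the data), and 0 to 3 when each array was left out. The count of other pathway genes was 25 (7 higher in esophagus, 18 in stomach), 19 with 75th-percentile scaling (8 and 11), and 12 to 23 when each array was left out. The 4 isozyme pairs without overlap became 10 without both arrays of mouse 4 and 4 to 10 when each array was left out, with 7 without the esophagus array of mouse 1 and 10 without the stomach array of mouse 4, but leaving out arrays can only keep or raise this count, so it says nothing about stability. With the mouse as a replicate block the 30 genes gave 1 higher in esophagus and 3 in stomach and the pathway lists gave 25. By limma, Pfkfb2 (adjusted p = 0.0529) and Car9 (adjusted p = 0.0596) were lost with the block. Exact sign flips within the 3 mice gave p = 0.25, the smallest possible, for the 4 pairs.

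With 75th-percentile scaling of the processed signal, which changed signal and normalization together, the median of all probes was 0.19 in place of 0.02. Differences near 0 changed sign with this alternative, none of them past the threshold. With 75th-percentile scaling Hk1 was at 0.026, Hk2 at 0.25, Gpi1 at 0.059, Aldoa at 0.12, Tpi1 at 0.29, Eno1 at 0.17, Ldha at 0.047, Pdk1 at 0.093 and the pair Pfkl minus Pfkp at 0.085. Without both arrays of mouse 4, Hk2 was at 0.39, Pfkl at 0.17, Pfkp at 0.0036, Pfkfb4 at 0.020, Aldoa at 0.17, Aldoc at 0.29, Tpi1 at 0.22, Eno1 at 0.18, Slc16a3 at 0.016 and Pdk1 at 0.27, and the pairs Pfkl minus Pfkp at 0.16, Aldoa minus Aldoc at -0.12 and Slc16a1 minus Slc16a3 at -0.12. With the mean of all probes Gapdh was at -0.057 and Ldha at 0.32. Leaving out each array also turned the sign of differences near 0. Hk2 ranged from -0.26 to 0.30, Pfkl from -0.65 to 0.064, Pfkfb4 from -0.29 to 0.025, Aldoa from -0.17 to 0.094, Aldoc from -0.72 to 0.23, Tpi1 from -0.20 to 0.31, Pgam2 from -0.28 to 0.18, Eno1 from -0.17 to 0.28, Pdk1 from -0.16 to 0.23 and Pck2 from -0.072 to 0.56, and the pairs Hk1 minus Hk2 from -0.73 to 0.13, Pfkl minus Pfkp from -0.13 to 0.12, Aldoa minus Aldoc from -0.20 to 0.72 and Eno2 minus Eno3 from -0.21 to 0.084. The cause was not tested.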
